A study of Bos taurus with 24 samples.

Results

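THBS1 encodes thrombospondin 1, a large secreted glycoprotein, and was listed in the deposited tables as ENSBTAG00000002006, 1 of 24616 genes. It was selected on its own measured values, namely its estimated read counts over the 8 conditions and its change between the control and the exposed well of each pair, so its pattern is given here as a description with no test. The libraries came from monocyte-derived macrophages (MDMs) of 6 lactating Holstein cows, 3 that had been classed as high responders and 3 as low responders by the nitric oxide (NO) that their MDMs made after contact with bacteria. Adherent blood monocytes were grown for 6 days in a serum-free medium with bovine GM-CSF at 5 ng/ml, and then 1 well was left as control while another received Escherichia coli that had been inactivated with paraformaldehyde, at a multiplicity of infection of 5. Wells were taken at 3 or 18 h, which gave 3 libraries for each combination of phenotype, treatment and time point, 24 in all, and 12 pairs of a control and an exposed well. The bacteria were dead, and each phenotype was represented by 3 cows, so that the values describe these cows under these culture conditions.

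Thrombospondin 1 is known best as a protein of platelet granules, but activated monocytes and macrophages also secrete it. It binds CD47 and CD36 on cells, can release transforming growth factor beta (TGF-beta) from its latent complex, and through CD47 dampens the signalling that NO sets off in cells. It also bridges phagocytes to dying cells and restrains proteases that act on the matrix around cells.

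Depth is given as the total of estimated counts, which ranged from 6297190 to 20936554 per library. THBS1 was represented by 1 transcript of 5269 bases in the tables, and its estimated counts were whole numbers in all 24 libraries, between 142 and 15842. Levels are given below as CPM, the counts scaled to a common library total after TMM normalization over the 24 libraries, or as the deposited TPM, a share of transcripts that also takes length into account. The width of RSEM's credibility interval for TPM lay between 3.08% and 32.6% of the value, and the wide intervals belonged to the exposed low responder wells at 18 h, where 2 libraries held 142 counts each. These intervals cover the counting and read assignment only, not the differences between cows. RNA was extracted from whole wells, so fewer THBS1-expressing cells and less THBS1 RNA per cell cannot be told apart.

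Of the markers fixed for other cell types, few could be looked up, because only part of the identifiers could be paired with a symbol. The macrophage markers CD14 and CD68 were present in all libraries, at 41.0 to 321 TPM and 1215 to 2671 TPM, and the scavenger receptor MSR1 and AIF1 were present at 15.5 to 788 TPM and 61.1 to 452 TPM. LUM and PDGFRB, which mark fibroblasts, reached at most 0.66 and 0.09 TPM, KDR of endothelial cells 0.88 TPM and CD79A of B cells 2.67 TPM. None of the 8 platelet markers could be paired with an identifier, and the part of platelets in the THBS1 values was not tested.

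With TMM, THBS1 RNA was higher in the exposed than in the control well of every high responder pair and lower in every low responder pair, at both time points, although high responder number 92 at 3 h fell without TMM and in TPM. At 3 h the pairs of high responders went from 190 to 221 CPM in number 92, from 144 to 542 CPM in number 93 and from 519 to 1465 CPM in number 94, the numbers being the library codes of the pairs. The low responder pairs at 3 h went from 169 to 88.0 CPM in number 91, from 335 to 163 CPM in number 92 and from 398 to 254 CPM in number 93. The pair with the smallest step was high responder number 92, and the control wells of low responders lay within the range of those of high responders.

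At 18 h the high responder pairs went from 109 to 161 CPM in number 91, from 275 to 499 CPM in number 93 and from 69.7 to 131 CPM in number 94. The low responder pairs at 18 h went from 122 to 9.12 CPM in number 91, from 88.8 to 9.50 CPM in number 92 and from 196 to 40.3 CPM in number 94. These 3 exposed low responder wells were the lowest of the 24 libraries, and none of them overlapped with any other condition. Counts in these wells were 142, 142 and 602, against 1278, 2157 and 2707 in their control wells.

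**Figure D1:**
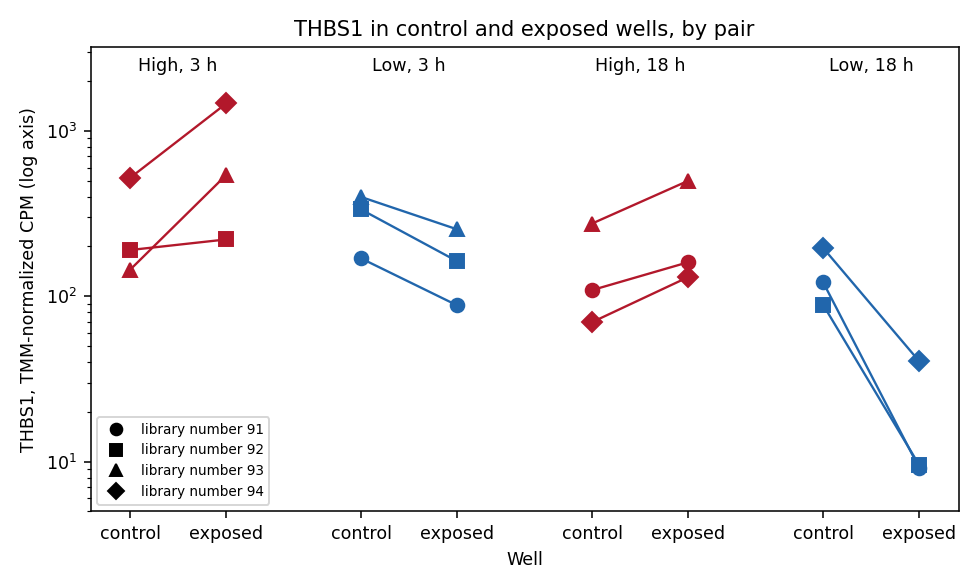
THBS1 level in each library in TMM-normalized CPM on a log axis, with a line from the control to the exposed well of each pair; red marks high responders, blue low responders, and symbols give the library number. Red lines rise and blue lines fall at both time points on this scale, number 92 of the high responders at 3 h falling without TMM and in TPM, and the exposed low responder wells at 18 h lie at 9.12, 9.50 and 40.3 CPM.

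On the log2 scale the mean change per pair in high responders was 1.21 ± 0.88 (SD, n = 3) at 3 h and 0.78 ± 0.19 (SD, n = 3) at 18 h. In low responders it was -0.88 ± 0.20 (SD, n = 3) at 3 h and -3.08 ± 0.74 (SD, n = 3) at 18 h. Expressed as a fold, the mean fall in low responders was 1.84-fold at 3 h and 8.46-fold at 18 h, and the 3 pairs at 18 h ranged from 4.86-fold to 13.3-fold. The spread between pairs was wide in high responders at 3 h and narrow at 18 h, whereas in low responders it was the reverse.

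The change in high responders minus that in low responders was 2.09 on the log2 scale at 3 h and 3.86 at 18 h, and the pairs of both phenotypes did not overlap. Fitted across all genes with edgeR, the same difference was 2.14 (SE 0.38) at 3 h, which placed THBS1 45th from the highest among 11264 genes, and 3.81 (SE 0.30) at 18 h, where it was 8th among 11759 genes. Leaving out each pair in turn gave differences between 1.80 and 2.61 at 3 h and between 3.48 and 4.27 at 18 h. The effect in high responders at 3 h was 1.75 without number 92 and 0.94 without number 93. The difference was larger at 18 h by 1.72 (SE 0.55) in the fit over both time points. Since THBS1 was chosen for this pattern, these ranks and values carry no p.

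Most of the difference lay in the exposed wells. In control wells the mean level of high responders minus that of low responders was -0.22 on the log2 scale at 3 h and -0.0073 at 18 h, with overlapping phenotypes at both times. In exposed wells it was 1.86 at 3 h, where the lowest high responder well, at 221 CPM, lay below the highest low responder well, at 254 CPM, and 3.85 at 18 h, where the phenotypes were apart.

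The size of the steps depended on the scale, and at 3 h so did the direction of 1 pair. By deposited TPM, high responder number 92 went from 54.5 to 43.8 TPM, a change of -0.32 on the log2 scale, and it also fell, by 0.25, in CPM on library totals without TMM. High responders at 3 h thus rose in 3 of 3 pairs with TMM and in 2 of 3 pairs with either of the other scales. The median change of all 11905 genes in these pairs was -0.41 in TPM, -0.42 in CPM without TMM and -0.056 with TMM. The mean change of THBS1 in TPM was 0.81 and 0.40 in high responders at 3 and 18 h and -1.36 and -3.27 in low responders. The difference between the phenotypes hardly moved, at 2.17 in TPM and 2.07 in CPM without TMM at 3 h.

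**Figure D2:**
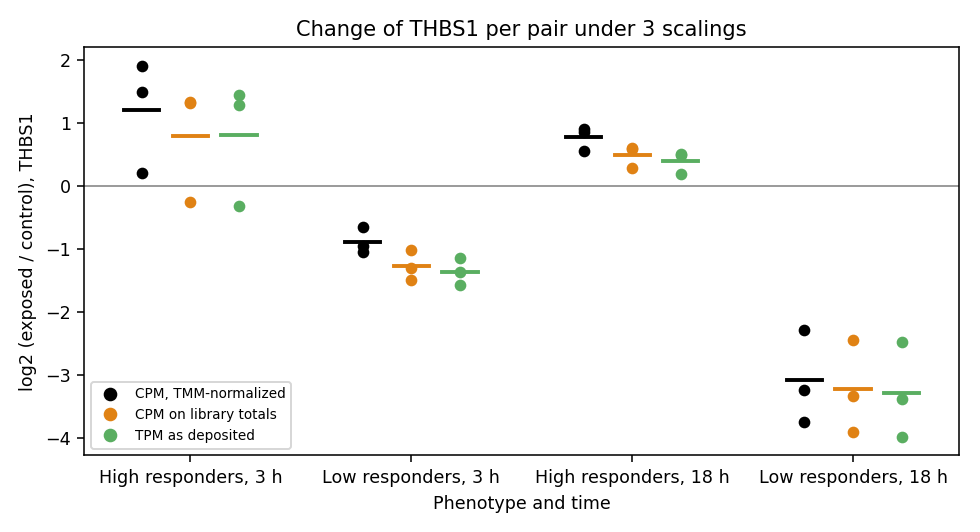
Change of THBS1 from the control to the exposed well on the log2 scale for each pair (points) and the mean of 3 pairs (bars), by phenotype and time point, under TMM-normalized CPM, CPM on library totals and deposited TPM. High responders at 3 h include 1 pair below 0 on the latter 2 scales, and all low responder pairs lie below 0 on every scale.

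Library numbers were spread unevenly over the phenotypes, so the difference was also taken within them. Among libraries numbered 91 and 92 the change in high responders minus that in low responders was 1.21 at 3 h and 4.04 at 18 h, from 1 high and 2 low responder pairs. Among those numbered 93 and 94 it was 2.35 at 3 h and 3.16 at 18 h, from 2 high and 1 low responder pairs. Each of these values rests on a single pair in 1 of the phenotypes, and their sign follows from the pair changes on which THBS1 was selected, so it is no support for the difference.

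Ordered by mean CPM, exposed high responders at 3 h stood first at 742 ± 646 CPM (SD, n = 3). Low responder and high responder control wells at 3 h followed at 301 ± 118 and 285 ± 205 CPM (SD, n = 3 each), and exposed high responders at 18 h at 264 ± 205 CPM (SD, n = 3). Exposed low responders at 3 h held 168 ± 82.9 CPM, and the control wells at 18 h 151 ± 109 CPM in high and 136 ± 55.0 CPM in low responders (SD, n = 3 each). Exposed low responders at 18 h were last at 19.7 ± 17.9 CPM (SD, n = 3). Neighbours in this order overlapped and differed by less than the larger of their SDs, apart from the last step, where 116 CPM separated the control from the exposed low responder wells at 18 h. By TPM the order was the same except that exposed low responders at 3 h moved to the 7th place.

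Ranked by TPM within a library, where rank 1 is the most abundant gene, THBS1 had a median rank of 1230 in exposed high responders at 3 h and reached rank 444 in 1 of them. In exposed low responders at 18 h the median rank was 9799, against 3721 in their control wells. The lowest rank of THBS1 in any other condition was 5613, in a high responder control well at 18 h, and the 3 exposed low responder wells at 18 h ranked from 7095 to 9889.

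THBS1 varied more between cows than most genes did. Its SD of log2 CPM within a condition averaged 0.95 over the 8 conditions, against a median of 0.28 over 11905 genes, and 2.60% of the genes had a larger mean SD. Within a condition the highest library exceeded the lowest by 2.21-fold in low responder control wells at 18 h and by 6.64-fold in exposed high responders at 3 h. Where library letters were taken as marks of a cow, which the labels do not state, the order of the 3 cows of each phenotype in control wells was the same at 3 and 18 h. On that reading the control wells held less THBS1 at 18 h than at 3 h in 6 of 6 cows, with a median log2 change of -0.98 and a range from -1.46 to -0.81. Exposed wells were lower in 6 of 6 cows too, with a median of -2.35 and a range from -4.16 to -0.46.

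**Figure D3:**
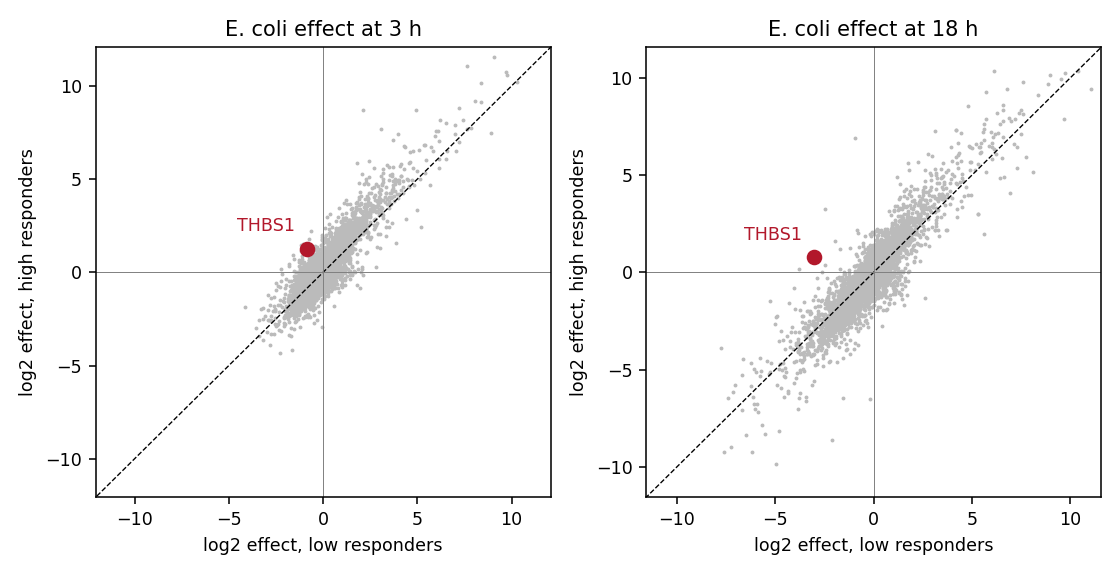
Fitted log2 effect of E. coli in high responders (vertical axis) against low responders (horizontal axis) for each gene tested (grey points) at 3 and 18 h, with THBS1 in red and a dashed line where both effects are equal. THBS1 lies in the upper left part of both panels, at -0.87 and 1.27 at 3 h and at -3.05 and 0.76 at 18 h.

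In the plot of effects across all genes, THBS1 lay above 0 in high and below 0 in low responders at both times. Genes in this direction are not counted here, because THBS1 was chosen on these values. Among genes lower in high and higher in low responders, edgeR called 0 in both phenotypes at 3 h and 1 at 18 h, as did DESeq2. At an unadjusted edgeR p below 0.05 in both phenotypes they numbered 1 at 3 h and 5 at 18 h. In any direction, edgeR called 1688 of 11264 genes in both phenotypes at 3 h and 3037 of 11759 at 18 h. The fitted effect of THBS1 in low responders at 18 h, -3.05 (SE 0.23), ranked 159th from the lowest of 11759 genes. In high responders the effect of 0.76 (SE 0.20) ranked 1640th from the highest.

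Genes around thrombospondin 1 were taken from 8 lists that cover its family, its receptors, TGF-beta, NO, proteases, matrix proteins, the uptake of dying cells and transcription factors of its promoter. Of 99 genes other than THBS1, 32 had an identifier paired with a symbol, 28 were tested at 3 h and 29 at 18 h. Symbols came from tables of which 22 of the 32 were found in an order set by the 18 h comparison of the phenotypes, so the listed genes lean towards genes with a difference at 18 h. A gene was called where edgeR's quasi-likelihood test gave a Benjamini-Hochberg adjusted p below 0.05 over all genes and the fold exceeded 1.5.

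In the change of high minus low responders, edgeR called 0 of 28 listed genes at 3 h, where 0.178% of all genes were called higher and 0% lower. At an unadjusted p below 0.05, 12 listed genes were higher and 0 lower, beside 951 and 479 of all 11264 genes, and DESeq2 called 1 listed gene and 184 of all genes higher. Of the genes called by DESeq2 at 3 h, 5 were lower. At 18 h 2 of 29 listed genes were called higher and 0 lower, beside 1.34% and 0.281% of all genes. At an unadjusted p below 0.05, 20 listed genes were higher and 5 lower at 18 h, beside 1116 and 951 of all 11759 genes. DESeq2 called 10 listed genes higher and 0 lower, beside 328 and 67 of all genes. The median difference over the listed genes was 0.46 at 3 h and 0.62 at 18 h, against 0.035 and -0.020 over all genes, and 0.20 and 0.11 over those whose symbol did not come from the 18 h order.

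The 2 genes called at 18 h were SIRPA and JUN. SIRPA, the inhibitory receptor for CD47 on macrophages, went from 790, 912 and 931 CPM in control wells to 1269, 1331 and 1675 CPM in exposed wells of high responders. In low responders its control wells held 617, 693 and 775 CPM and its exposed wells 593, 689 and 870 CPM. The exposed wells of high responders lay above all others, and those of low responders overlapped with their controls. The difference was 0.67 (SE 0.14, edgeR adjusted p = 0.0436), and it was called in 1 of the 6 fits that each left out a pair.

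JUN, a subunit of the AP-1 transcription factor, rose in high responders by 0.85 (SE 0.09) at 18 h. Its effect in low responders at 18 h was 0.24 (SE 0.09, edgeR adjusted p = 0.0458), which missed only the fold threshold. At 3 h JUN rose in both, by 1.26 (SE 0.15) in high and 0.63 (SE 0.15) in low responders. The difference at 3 h was 0.63 (SE 0.21, edgeR adjusted p = 0.310) and was not called. JUN exposed wells at 18 h held 230, 283 and 294 CPM in high responders and 176, 182 and 239 CPM in low responders, which overlapped. The difference at 18 h was 0.61 (SE 0.13, edgeR adjusted p = 0.0482). It was called in 0 of the 6 fits that each left out a pair, with values from 0.55 to 0.70. Both genes also lost their call in the fit without the pairing and in that with exposure by library number, and JUN also with all 24 libraries in 1 fit.

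The effect of E. coli within each phenotype was tested in the same way. At 3 h in high responders 17 of 28 listed genes rose and 1 fell, beside 15.7% and 11.9% of all genes. In low responders at 3 h 14 rose and 1 fell, beside 9.93% and 7.78%. At 18 h in high responders 17 of 29 listed genes rose and 5 fell, beside 17.1% and 22.5%. In low responders at 18 h 10 rose and 6 fell, beside 11.3% and 17.8%. The median effect over the listed genes was 1.07 and 0.55 at 3 h and 0.96 and 0.31 at 18 h in high and low responders, against -0.012, -0.031, -0.038 and 0.0018 over all genes. Among listed genes whose symbol did not come from the 18 h order the medians were 0.31 and 0.19 at 3 h and -0.48 and -0.58 at 18 h, so the sign turned at 18 h. Of these, 2 of 6 rose and 1 fell at 3 h and 1 of 7 rose and 3 fell at 18 h, in either phenotype. Of the 22 genes with a symbol from the 18 h order, 16 rose and 2 fell in high and 9 rose and 3 fell in low responders at 18 h.

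Of the thrombospondin family, THBS3 was the member other than THBS1 with a symbol, and it reached at most 0.47 TPM and 11 counts. Among receptors and partners at the cell surface, CD47 was abundant in all libraries, from 166 to 474 TPM. It rose at 18 h by 1.14 (SE 0.11) in high and by 0.68 (SE 0.11) in low responders on the log2 scale. SDC4, a heparan sulfate proteoglycan that can bind the amino-terminal part of thrombospondin 1, rose at 18 h by 3.42 (SE 0.18) in high and 2.60 (SE 0.18) in low responders. CALR, calreticulin, a chaperone that also acts at the cell surface as a partner of thrombospondin 1, fell at 18 h by 0.94 (SE 0.08) in high and by 0.63 (SE 0.08) in low responders. In exposed low responder wells at 18 h CD47 stood at 324 ± 48.9 TPM (SD, n = 3) and THBS1 at 5.14 ± 4.56 TPM (SD, n = 3), whereas in exposed high responder wells they stood at 419 ± 49.9 and 60.0 ± 45.2 TPM (SD, n = 3 each).

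Among TGF-beta genes SKIL, a repressor of SMAD signalling, rose in both phenotypes at both times, at 18 h by 1.62 (SE 0.16) in high and 0.93 (SE 0.15) in low responders. LRRC32, which holds latent TGF-beta at the cell surface, fell at 3 h by 0.82 (SE 0.22) in high and by 1.04 (SE 0.20) in low responders, and neither effect was called at 18 h. SMAD7, an inhibitor that TGF-beta induces, had values of 0.36 (SE 0.23) and -0.58 (SE 0.23) at 3 h and of 0.32 (SE 0.27) and -0.63 (SE 0.26) at 18 h in high and low responders, none of them called. SMAD6, another inhibitor of SMAD signalling, was called lower in both phenotypes at 18 h but reached at most 1.84 TPM.

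NOS2, the inducible NO synthase whose product defined the phenotypes, rose at 18 h from 5.55, 6.36 and 8.02 CPM to 6619, 7069 and 9294 CPM in high responders. In low responders it rose from 3.79, 6.28 and 8.19 CPM to 1988, 3378 and 4059 CPM. The exposed wells of the phenotypes did not overlap at 18 h, yet the difference of 1.17 (SE 0.26) had an edgeR adjusted p of 0.0592 and was not called. At 3 h the difference was 1.64 (SE 0.32) with an edgeR adjusted p of 0.0781, and DESeq2 called the difference at both times. ARG2, which competes for arginine, rose by 2.06 (SE 0.09) and 1.49 (SE 0.09) in high and low responders at 18 h. VASP, a substrate of the kinase downstream of NO, was not called in either phenotype, with values at 18 h of -0.03 (SE 0.13) and -0.48 (SE 0.13). At 3 h its value in high responders was 0.54 (SE 0.15, edgeR adjusted p = 0.0221). This effect and that in low responders at 18 h (edgeR adjusted p = 0.0131) missed only the fold threshold. NOS2 thus rose in both phenotypes while THBS1 stood higher in exposed wells of 1 phenotype and lower in those of the other.

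Among proteases and their partners, SERPINB2, an inhibitor of plasminogen activators, rose at 18 h by 3.27 (SE 0.12) in high and 2.58 (SE 0.12) in low responders. PLAU, the urokinase protease, and PLAUR, its receptor, rose in high responders at 18 h by 1.19 (SE 0.15) and 0.96 (SE 0.15), while in low responders both had an effect of 0.31 (SE 0.15) that was not called. At 3 h PLAU rose in low responders by 0.63 (SE 0.13) and had a value of 0.23 (SE 0.13) in high responders, and PLAUR rose in both, by 1.07 (SE 0.19) in high and 0.87 (SE 0.18) in low responders. MMP14, a membrane-bound matrix protease, rose in high responders by 0.62 (SE 0.09) at 18 h and its effect in low responders was 0.17 (SE 0.09). None of these differences between phenotypes was called by edgeR, the smallest adjusted p among these 4 genes at 18 h being 0.0631.

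Of the matrix proteins, VCAN, versican, rose in both phenotypes at 18 h by 2.52 (SE 0.20) and 3.15 (SE 0.21), and CCN3, a matricellular protein, fell by 1.60 (SE 0.16) and 0.86 (SE 0.14). TNC, tenascin C, was called higher at 3 h in both phenotypes but reached at most 0.56 TPM. In the list for uptake of dying cells, GAS6, a bridging ligand of the TAM receptors, fell at 18 h by 2.50 (SE 0.17) in high and 1.69 (SE 0.16) in low responders, and its receptor TYRO3 fell by 0.77 (SE 0.20) and 0.86 (SE 0.19).

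Among transcription factors known to act on the THBS1 promoter, HIF1A, the oxygen-regulated factor, rose at 18 h by 1.48 (SE 0.11) in high and 0.97 (SE 0.11) in low responders. ATF3, a stress-induced factor, rose at 3 h in both phenotypes, by 2.41 (SE 0.33) in high and 1.69 (SE 0.31) in low responders. At 18 h ATF3 rose in high responders by 1.21 (SE 0.23) and had a value of 0.32 (SE 0.22) in low responders. The difference of 0.90 (SE 0.32, edgeR adjusted p = 0.199) was not called. ATF3 control wells at 18 h held 250 ± 109 CPM in high and 463 ± 70.1 CPM in low responders (SD, n = 3 each). Exposed wells held 548 ± 41.8 CPM in high and 582 ± 37.7 CPM in low responders (SD, n = 3 each), which overlapped.

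**Figure D4:**
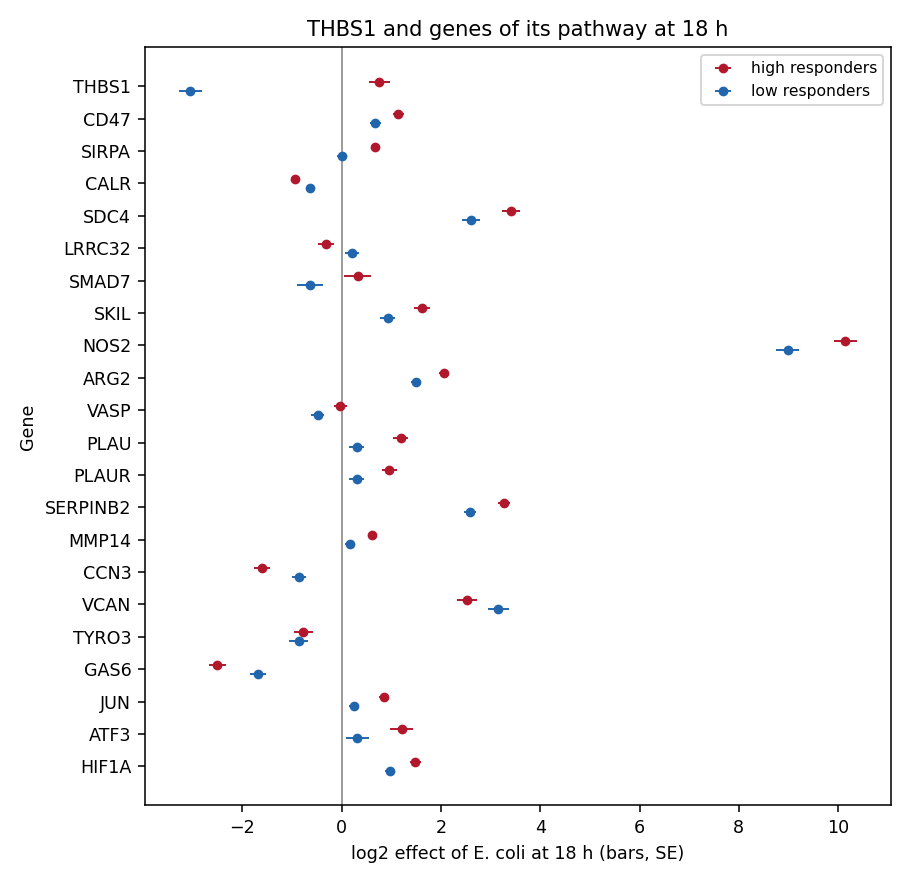
Fitted log2 effect of E. coli at 18 h with its SE (bars) in high responders (red) and low responders (blue) for THBS1 and the listed genes named here with a mean above 1 TPM. THBS1 has the lowest value shown in low responders, -3.05, and a value of 0.76 in high responders.

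The genes whose log2 changes over the 12 pairs were most like those of THBS1 were sought among 11217 genes tested at both time points, by Pearson's r. The points share 2 phenotypes and 2 time points, so r describes the pattern over these groups. Only 2221 of the genes carried a symbol, 969 of them from the 18 h order, and 2 genes without a symbol stood above the tenth named gene. Among genes with a symbol PIK3AP1 came first with r = 0.94, before MYO18A (0.92), NFIL3 (0.92), PFKFB3 (0.91), NFE2L3 (0.90), RHBDD1 (0.90), MMP14 (0.90), KLF10 (0.90), ASNS (0.89) and SIRPA (0.89). Each of these symbols came from the 18 h order, so this ranking too leans towards genes with a difference at 18 h.

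The genes with a symbol most like THBS1 in shape differed in direction. NFE2L3, a transcription factor of the cap'n'collar family, was higher in the exposed well of all 6 high responder pairs, by 1.24 to 2.85 on the log2 scale, and lower in all 3 low responder pairs at 18 h, with -0.49 to -1.14, but higher in the 3 low responder pairs at 3 h. MYO18A, an unconventional myosin, was also higher in all 6 high responder pairs and lower in all 3 low responder pairs at 18 h, there with -0.042 to -0.15. PIK3AP1, an adaptor that links receptors to phosphoinositide 3-kinase, was higher in the exposed well of all 12 pairs, by 0.18 to 2.11 on the log2 scale, with its smallest steps in low responders at 18 h. KLF10, a transcription factor first known as induced by TGF-beta, was lower in the exposed well of all 6 low responder pairs and ranged from -0.21 to 0.75 in high responders. KLF10 was also alike in its 24 levels, with r = 0.90, and was the 1 gene that both rankings shared, since CHI3L1 (0.91) and TREM1 (0.86) stood beside it in the ranking by levels. Among genes with a symbol the lowest r belonged to ACTL6A (-0.94), C14H8orf33 (-0.87), RBM34 (-0.87), TAGLN2 (-0.86) and CD84 (-0.85), and 9 genes without a symbol stood below CD84.

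**Figure D5:**
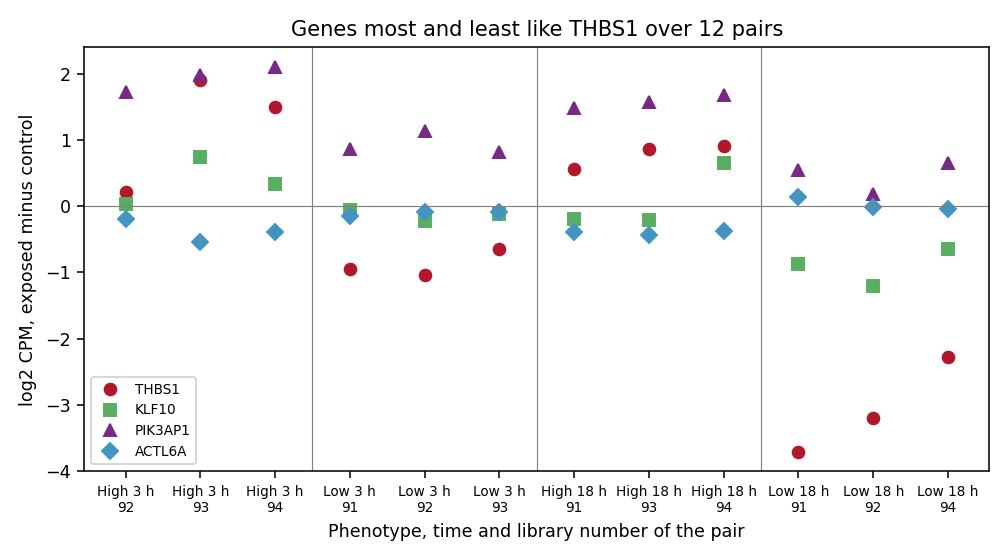
Change in log2 CPM (prior count of 2) from the control to the exposed well in each of 12 pairs for THBS1, for KLF10 and PIK3AP1, which are among the most alike with a symbol, and for ACTL6A, the least alike of the genes with a symbol, by phenotype, time point and library number. THBS1 spans -3.71 to 1.91, whereas PIK3AP1 stays above 0 in all pairs.

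In the reference annotation, which is of another genome build than the tables, THBS1 lies between FAM98B and RASGRP1 on one side and FSIP1 and GPR176 on the other, and FSIP1 overlaps it. None of these 4 neighbours was paired with an identifier in the tables, so their values were not analysed here. The library kit kept the strand of the RNA, but whether the counting used it is not given in the sources used here. Reads of an overlapping gene could therefore have been counted for THBS1. RSEM's posterior SD of the THBS1 count, which measures uncertain read assignment between transcripts of its annotation, was at most 0 over the 24 libraries. Overlap with sequence outside that annotation was not tested.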

How the data were processed

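From paired reads of a stranded mRNA kit, trimmed with Trimmomatic and placed on UMD 3.1 with STAR, the authors estimated gene abundance with RSEM. The authors deposited expected counts (estimated read pairs per gene, not normalized), TPM (divided by effective length and scaled to the same sum per library) and credibility bounds of TPM, 1 table per library. Expected counts were rounded. Totals ran from 6297190 to 20936554, and depth limits genes with few counts.

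TMM normalization, filtering by expression and quasi-likelihood fits used edgeR 4.0.16 in R 4.3.3, separately for each time point, with a term per pair and 1 effect of E. coli per phenotype. p values were adjusted by Benjamini-Hochberg over all genes tested, and a call needed an adjusted p below 0.05 and a fold above 1.5. DESeq2 1.42.0, other normalizations and filters, fits without the pairing and fits without each pair were alternatives.

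The treatment protocol gives 1 control and 1 exposed well per sample, and libraries with the same number were paired: deviations from the condition means correlated at 0.33 to 0.73 within the 12 pairs. That wells came from separate cows rests on the study's methods, and p values measure the spread between these samples.

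THBS1, the lists and the rules were chosen with earlier results of these data known. Named genes were list members called in the difference, up to 4 tested members per list with the highest mean TPM, the 10 genes most and 5 least like THBS1, and its neighbours; 1 gene that the rule names is not reported here. Symbols came from supplementary tables that pair 2808 of 24616 identifiers with a name, 974 of them in an order set by the 18 h comparison. The reference gene table (ARS-UCD2.0) gave neighbours only, and no coordinates are given.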

Additional observations from a re-analysis of the deposited data

Results flagged for a closer look

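THBS1 was higher in the exposed well of every high responder pair and lower in that of every low responder pair, with a difference of the mean log2 changes of 2.09 at 3 h and 3.86 at 18 h. The difference was not tested, since the gene was chosen for it. Of the 3 scales on which pairs were compared, the statement holds at 3 h with TMM and not with TPM or CPM on library totals, where high responder number 92 fell. SIRPA and JUN had a tested difference of the response between phenotypes at 18 h, of 0.67 and 0.61 on the log2 scale by edgeR's quasi-likelihood test. SIRPA was called in 1 and JUN in 0 of the 6 fits that each left out a pair, and both calls were lost without the pairing and with exposure by library number.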

How the results depend on the processing

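The fitted or mean THBS1 differences and effects kept their sign under all alternatives run, while the single pair of high responder number 92 at 3 h did not. By TPM and by CPM without TMM, the THBS1 effect moved to -1.36 and -1.27 in low responders at 3 h and to 0.40 and 0.49 in high responders at 18 h, as the median of all genes also shifted. Counts of calls depended more on the settings. For the response difference at 3 h (20 genes), 103 were called with no filter, 189 by DESeq2, 34 with length offsets, 165 with all 24 libraries in 1 fit, 123 at an adjusted p below 0.1, 0 with exposure by library number (chosen after seeing the data), and 0 to 506 without 1 pair, the highest without high responder number 94. For 18 h (190 genes) these were 435 with no filter, 395 by DESeq2, 124 with all libraries, 448 at 0.1, 67 with exposure by library number and 30 to 178 without 1 pair, the lowest without low responder number 92 and 76 without number 94. Without the replicate block, that is without the pairing, 0 genes were called at either time, 1824 in place of 3113 for high responders and 829 in place of 1995 for low responders at 3 h. Listed genes called at 3 h (0) were 1 with no filter, by DESeq2, with all libraries and at 0.1, and 0 to 7 without 1 pair. At 18 h (2) they were 6 with no filter, 10 by DESeq2, 0 without the pairing and with exposure by library number, 1 with all libraries, 6 at 0.1 and 0 to 4 without 1 pair. The effect in low responders at 3 h had 932 to 2423 genes and 9 to 15 listed genes without 1 pair. The cause of these shifts was not tested. The sign of the difference turned without 1 pair for genes that were not called: at 3 h CCN3 (-0.067 to 0.23), GAS6 (-0.15 to 0.33), LRRC32 (-0.026 to 0.38) and TYRO3 (-0.16 to 0.54), and at 18 h SMAD6 (-0.81 to 2.27), THBS3 (-0.39 to 1.12) and TYRO3 (-0.084 to 0.35). Of the 10 genes with a symbol that were most like THBS1, 8 were shared with the ranking by Spearman's rho and 1 with that by levels.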
